A study of Gallus gallus with 12 samples.

Results

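Beads carrying Noggin and retinoic acid (RA) together were set against carrier beads in the maxillary prominence of the chicken embryo, a bud of the early face that gives rise to the lateral part of the upper beak. The comparison took 6 of the 12 arrays of the series. They were the 3 arrays whose titles named Noggin and RA (Noggin+RA) and the 3 whose titles named both carriers (Tris+DMSO). In Noggin+RA embryos a 200 µm bead soaked in 1 mg/ml Noggin protein and a 100 µm bead soaked in 1 mg/ml all-trans-RA were implanted together, in the tissue lying between eye and mandibular arch. Tris+DMSO embryos carried the same kinds of bead with only the buffer Tris and the solvent dimethylsulfoxide. Every embryo on these arrays had thus been operated on, and no array of the series came from embryos without beads. Implantation was at Hamburger-Hamilton stage 15, at 25 somites. After 16 h at 38 °C the embryos had reached stage 18, and maxillary tissue with both its mesenchyme and its epithelium was pooled from 12 to 15 embryos for each array, giving n = 3 pools in each group. The series, which concerned genes of the facial midline, also held 3 pools with Noggin and the solvent (Noggin+DMSO) and 3 with RA and the buffer (Tris+RA). Those 6 arrays helped to estimate the spread of each probe set and are given beside the main comparison as side values. The sources used here give neither strain nor sex.

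RA is a vitamin A derivative that enters cells and binds nuclear receptors (RARs), which then switch on target genes, among them those of the enzymes that destroy RA. Bone morphogenetic proteins (BMPs) are secreted ligands whose receptors act through SMAD proteins to raise genes such as the ID and MSX families, and Noggin binds BMPs outside the cell and keeps them from their receptors. In the chicken face, blocking BMPs while supplying RA is known to make maxillary tissue form midline beak structures, which normally come from the frontonasal mass.

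RNA was measured on a 1-colour Affymetrix chicken array, and the values are the intensities the authors deposited, with a trimmed mean of 150.03 on every array. The mesenchyme and epithelium of the tissue label were checked against marker genes, while the maxillary origin was not checked in this way. COL1A2, a mesenchymal collagen gene, averaged 2246 ± 224 in Noggin+RA and 2578 ± 446 in Tris+DMSO (SD, n = 3 each), and EPCAM, an epithelial surface gene, averaged 2699 ± 165 in Noggin+RA and 2259 ± 86.1 in Tris+DMSO. All 8 cranial mesenchyme markers were among the probe sets kept for testing. Of 20 surface epithelium markers 12 were on the array, and all 12 were kept. Pairs of arrays, compared on the log2 scale over the kept probe sets, had correlations of 0.975 to 0.976 within Noggin+RA, 0.971 to 0.979 within Tris+DMSO and 0.959 to 0.972 between the groups. In whole tissue, fewer cells of a type and less RNA per cell cannot be told apart.

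Of 3 measures of RNA quality, the GAPDH ratio did not overlap between the groups. GAPDH control probe sets at the 5' end, read over those at the 3' end, give a ratio that drops when RNA or its copies are short. It lay between 0.703 and 0.736 in Noggin+RA and between 0.813 and 0.839 in Tris+DMSO. The exact two-sided permutation p was 0.1, the smallest that 3 against 3 can give (adjusted p = 0.2 over 6 array measures). The median intensity of an array was 40.9 to 42.0 in Noggin+RA and 33.9 to 39.8 in Tris+DMSO, also without overlap. The virus probe sets, taken here as background, had array medians of 5.76 to 6.33 in Noggin+RA and 4.24 to 5.54 in Tris+DMSO, without overlap as well (exact permutation p = 0.1 and adjusted p = 0.2 for both measures). The actin ratio (0.468 to 0.576 in Noggin+RA, 0.519 to 0.550 in Tris+DMSO) and the EF1A ratio (0.531 to 0.656 in Noggin+RA, 0.615 to 0.665 in Tris+DMSO) overlapped. In the side groups the GAPDH ratio was 0.619 to 0.699 in Noggin+DMSO and 0.784 to 0.849 in Tris+RA. By this ratio, the median intensity and the virus median, every array with Noggin lay apart from every array without it. In comparisons that differ in Noggin, these measures and Noggin cannot be told apart. The part of RNA quality in the results was not tested. A fit with the GAPDH ratio as a covariate is given with the counts. It cannot tell RNA quality from Noggin, because the ratio itself split the arrays by Noggin.

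In Noggin+RA DHRS3, RARB and TGM2 of the RA list, the protease PLAU and the protease inhibitors TFPI2 and TIMP4 rose. The matrix genes COL12A1, OGN and SPON2 rose too, as did TBX22 and EMX2 of the frontonasal and upper face list. LHX8, PRRX1, DLX1 and MECOM of the first arch list, MAB21L1 and MAB21L2 and the vessel factors VEGFC and ANGPT2 fell. Of 21354 probe sets tested with limma, 173 (0.810%) passed an adjusted p below 0.05. Of these, 109 (0.510%) rose and 64 (0.300%) fell, and 74 changed at least 2-fold (51 rose, 23 fell). They stood for 120 genes, with 39 further probe sets that had no single symbol. In 12 genes several probe sets passed, and in none of these did they pass in opposite directions. Of the genes called by their brightest probe set, 39 had more than 1 kept probe set, and in 36 of them all had the same sign. Often only 1 passed: 1 of 2 kept in PLAU, GEM, SPON2, DLX1, MECOM and SLITRK4, among others. It was 1 of 3 in COL8A1 and PYGB and 1 of 4 in CPNE8. The 3 values of one group lay wholly to one side of the 3 of the other in 4220 probe sets (19.8%) and in all 173 that passed. Counting 1 probe set per gene, the brightest, 65 of 10163 genes (0.64%) rose and 35 (0.344%) fell, and the median difference over all genes was 0.03 on the log2 scale.

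The count rests on several arrays. It was 33 without Tris+DMSO pool 2, 35 without Noggin+RA pool 3, 85 without Tris+DMSO pool 1, 97 without Tris+DMSO pool 3 and 109 without Noggin+RA pool 1. It was also 108 without Tris+RA pool 3 and 109 without Noggin+DMSO pool 1, which enter only through the spread. A set of 21 probe sets passed in each of the 6 fits that left out 1 of the compared arrays, and 14 of them were the brightest of their gene: PLAU, C11orf96, DHRS3, EMX2, CDC42EP3, GEM, TBX22, RSPO3, SPON2, OGN and COL12A1, which rose, and VEGFC, SLITRK4 and CYTL1, which fell. C11orf96, an open reading frame symbol outside the naming rule, is named after its values were seen. Of the 100 genes called by their brightest probe set, 13 kept the call in none of these 6 fits, 32 in 1 and 18 in 2. CA9, SDC2, NOM1 and ZFP36L2 kept it in none. RARB, PRRX1, ANGPT2, PLXNC1, TIMP4, MAB21L1, WISP1, KRT75, FBLN5, CRIP1, LMCD1, DICER1, RIF1, CPNE8, LIX1, OTOP1 and PYGB kept it in 1, by the brightest probe set. With the GAPDH ratio as a covariate 2 probe sets passed, TBX22 being one of them, and 4 passed when only the 6 compared arrays were fitted. Rises made up 63% of the calls as deposited and 40.4% (74 up, 109 down) after centring each array on its median, which moved the median of all tested probe sets to -0.06 on the log2 scale, against 0.04 as deposited.

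**Figure D1:**
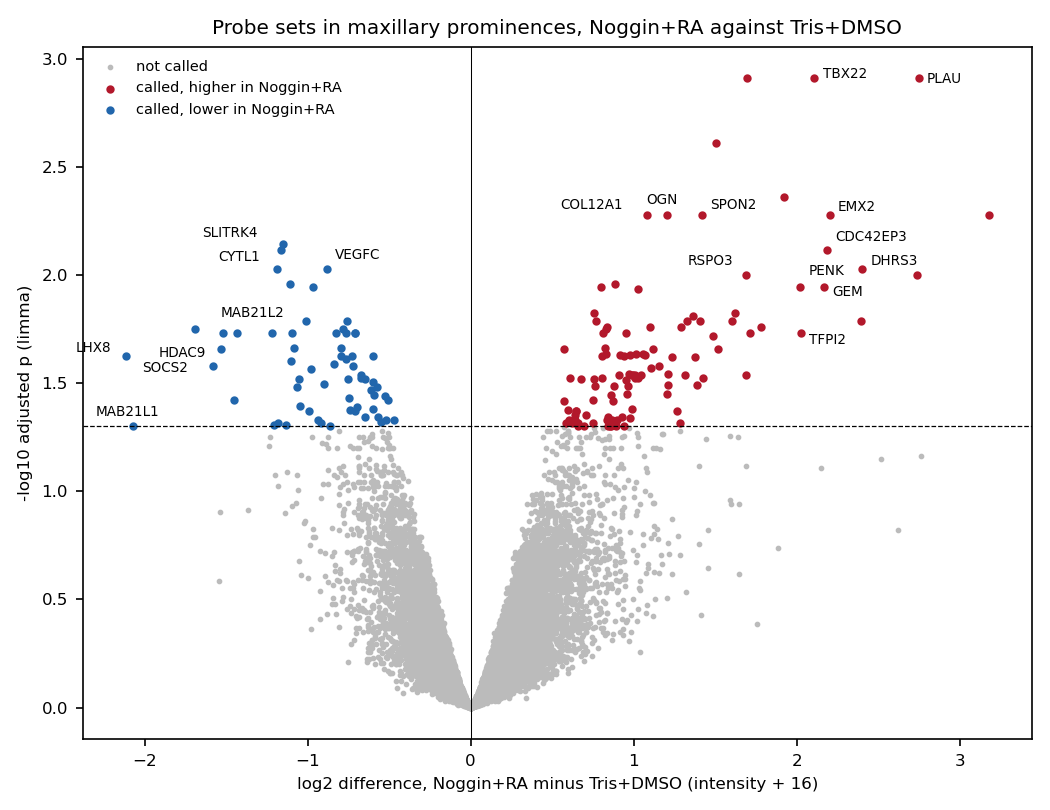
Each point is 1 of the 21354 probe sets, with the log2 difference (Noggin+RA minus Tris+DMSO, of intensity + 16) on the x axis and -log10 of the limma adjusted p on the y axis. The dashed line is the threshold of 0.05; 109 probe sets lie above it on the right and 64 on the left, with PLAU, TBX22, EMX2 and DHRS3 at the upper right and LHX8 and MAB21L1 at the far left.

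Among genes that handle or answer RA, DHRS3, RARB and TGM2 rose. The enzyme DHRS3 reduces retinaldehyde to retinol and so lowers the supply of RA. Its intensity was 1088, 975 and 1598 in the 3 Noggin+RA pools, against 178, 229 and 235 in the 3 Tris+DMSO pools. Every treated pool stood far above every control pool, and DHRS3 rose 5.29-fold (log2 2.40, SE 0.314, adjusted p = 0.00941, limma). Folds here come from differences of group means of log2(intensity + 16), a scale that understates the change of dim genes. A second, dimmer DHRS3 probe set read 140.4, 106 and 238 in Noggin+RA, against 15.6, 27.6 and 8.19 in Tris+DMSO, and was at least 3.29-fold higher (adjusted p = 0.0164). The words "at least" mark folds in which no more than 1 of 3 arrays of the lower group was above background, taken as the 95th percentile of the virus probe sets of the array, and in which lower values were raised to that level.

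RARB, an RA receptor whose own gene is an RA target, was at 1194, 1065 and 1388 in Noggin+RA and at 641, 811 and 685 in Tris+DMSO. It rose 1.69-fold by this probe set (adjusted p = 0.0301) and 1.797-fold by another (adjusted p = 0.0455). TGM2, a transglutaminase that crosslinks proteins and is induced by RA in many cells, was at 177, 209.9 and 138 in Noggin+RA and 87.0, 62.7 and 76.2 in Tris+DMSO, and rose 2.08-fold (adjusted p = 0.0231). Both genes had no overlap between groups. TGM2 averaged 175 ± 35.8 in Noggin+RA, 219 ± 32.6 in Noggin+DMSO, 98.6 ± 18.6 in Tris+RA pools and 75.3 ± 12.1 in Tris+DMSO (SD, n = 3 each). Noggin alone gave a log2 difference of 1.36 (adjusted p = 0.00277) and RA alone 0.32 (adjusted p = 0.858), both against the same Tris+DMSO arrays. Noggin+RA differed from Noggin+DMSO by -0.31 (adjusted p = 0.638) and from Tris+RA by 0.73 (adjusted p = 0.133) on the log2 scale, and neither passed.

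The CYP26 enzymes, which oxidise RA, did not pass. No treated value overlapped a control value in any of the 3, a separation found in 19.8% of all tested probe sets. CYP26A1 was at 1236, 399.8 and 1359.8 in Noggin+RA and 90.9, 192 and 156 in Tris+DMSO (log2 2.52, SE 0.570, adjusted p = 0.0708). CYP26B1 was at 247, 122 and 354 in Noggin+RA and 66.5, 55.1 and 58.6 in Tris+DMSO (log2 1.65, SE 0.434, adjusted p = 0.115). For CYP26C1 the values were 355, 299 and 386 in Noggin+RA and 197, 151 and 183 in Tris+DMSO (log2 0.91, SE 0.268, adjusted p = 0.152). In both CYP26A1 and CYP26B1 the second treated pool was the lowest, at well under the other treated pools.

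None of the 3 RA synthesis genes described here passed. ALDH1A2, a retinaldehyde dehydrogenase, was at 684, 487 and 457 in Noggin+RA and at 758, 805 and 753 in Tris+DMSO (adjusted p = 0.203). ALDH1A3, a related enzyme, read 172, 279.5 and 268 in Noggin+RA and 68.0, 89.0 and 299 in Tris+DMSO (adjusted p = 0.364), so the third control pool exceeded every treated pool. RDH10, which oxidises retinol to retinaldehyde, was at 1077, 1216 and 1793 in Noggin+RA and 739.9, 998 and 1024 in Tris+DMSO (adjusted p = 0.271). Of the whole RA list, 22 genes long with 19 on the array and 16 kept, 3 passed upward, none passed downward and 13 were above 0. Its median log2 difference was 0.53, against 0.03 over all genes. Of all 10163 genes, 0.64% passed upward, 0.344% passed downward and 54.9% were above 0, which is the background of every list count. The lists were written with earlier results of these data known, so their counts and medians describe them and test nothing.

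**Figure D2:**
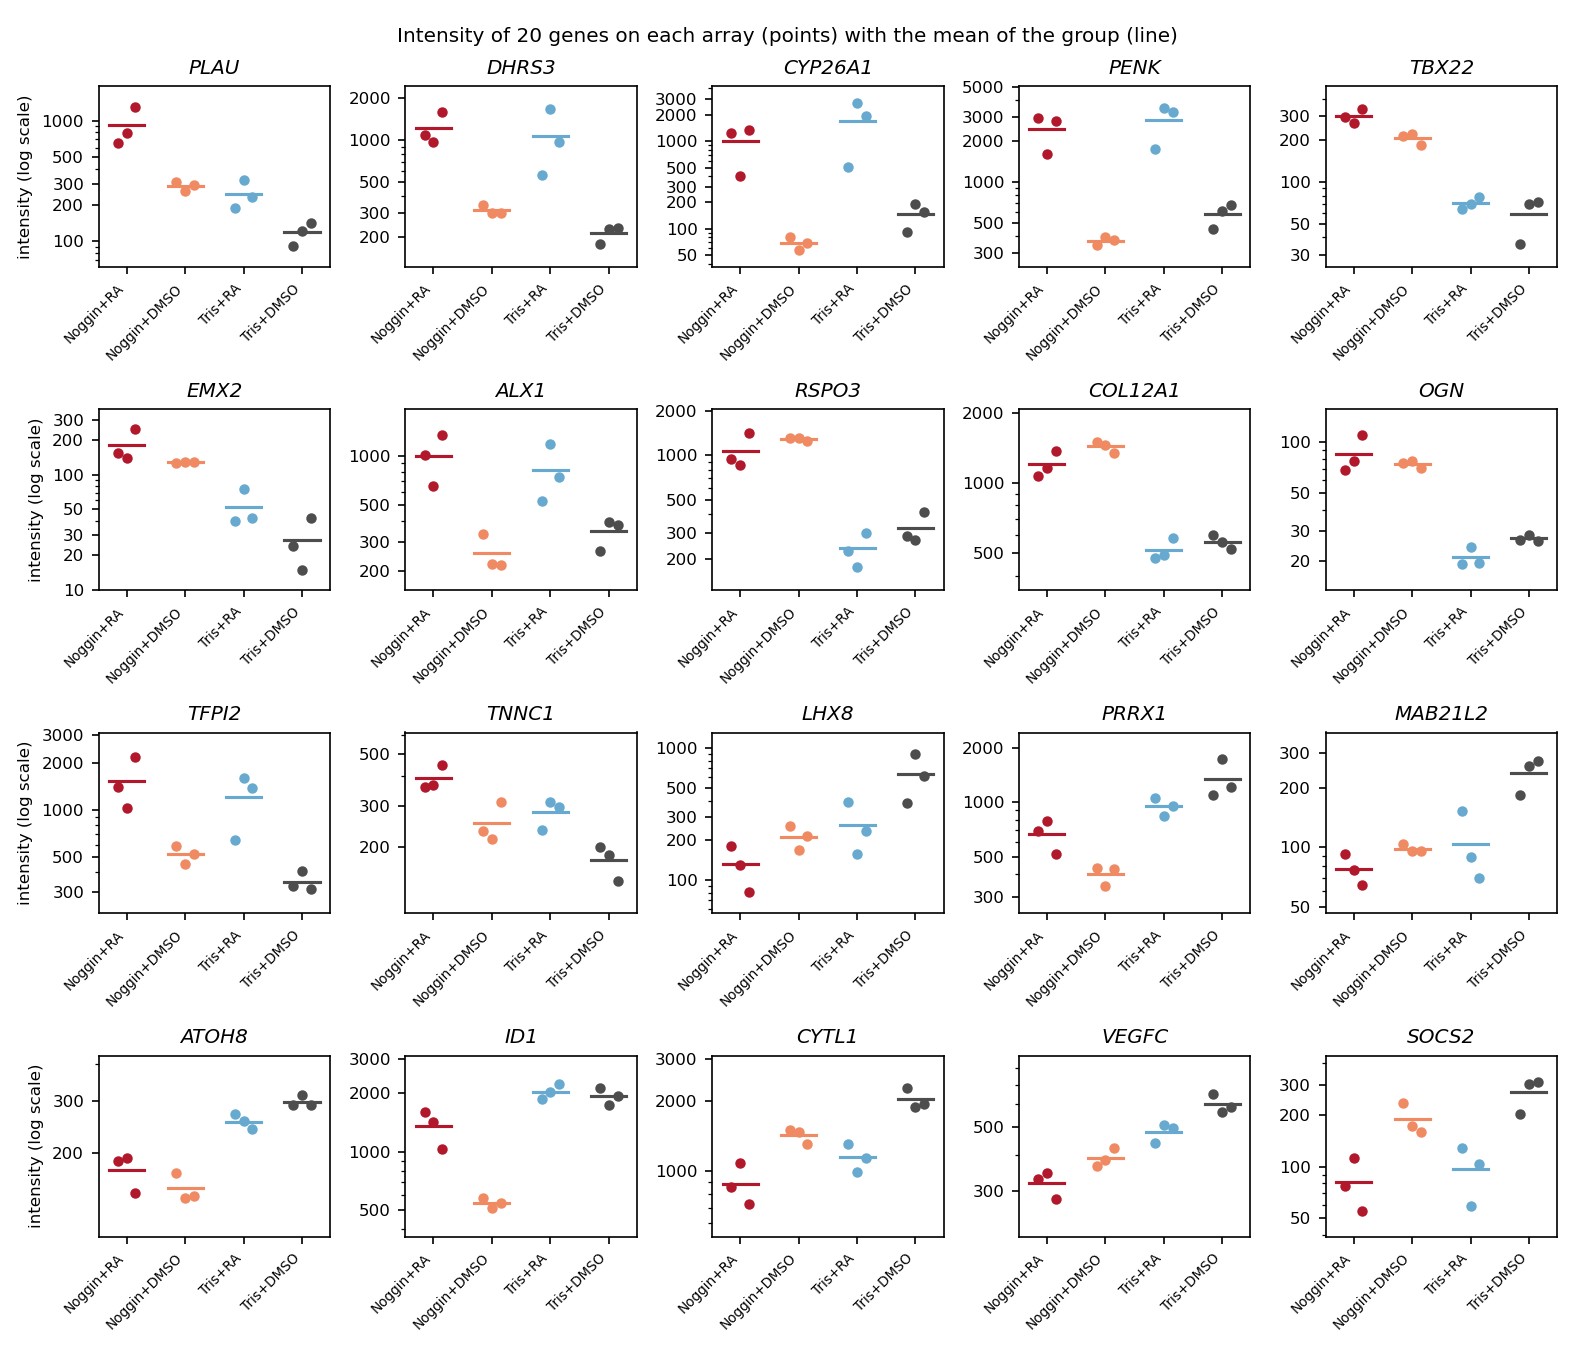
Intensity (log axis) of 20 genes on each of the 12 arrays, as points, with the group mean as a line; groups from left to right are Noggin+RA, Noggin+DMSO, Tris+RA and Tris+DMSO. DHRS3, PLAU and TBX22 have all 3 Noggin+RA points above all 3 Tris+DMSO points, LHX8 and CYTL1 have them all below, and CYP26A1 has 1 Noggin+RA point, at 399.8, well under the other 2.

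Genes downstream of BMP were mostly lower, and 1 of them passed. ATOH8, a helix-loop-helix factor that responds to BMP, read 188, 193 and 146 in Noggin+RA, against 292, 316 and 291 in Tris+DMSO, and fell 1.65-fold (log2 -0.73, SE 0.123, adjusted p = 0.0237). ID1, an inhibitor of helix-loop-helix factors and a direct SMAD target, was at 1601, 1416 and 1038 in Noggin+RA and 2139, 1735 and 1925 in Tris+DMSO. These values did not overlap, as in 19.8% of all tested probe sets, and ID1 did not pass (log2 -0.53, adjusted p = 0.1501). MSX1, a homeobox gene of the facial mesenchyme, was at 247, 211 and 172 in Noggin+RA and 299.8, 367 and 302 in Tris+DMSO (log2 -0.59, adjusted p = 0.1001). Of the 14 kept BMP targets 2 were above 0, and the median was -0.36 on the log2 scale.

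ID1 was higher with both factors than with Noggin alone. It averaged 1352 ± 287 in Noggin+RA, against 545 ± 32.5 in Noggin+DMSO (SD, n = 3 each), and that difference passed (log2 1.26, adjusted p = 0.00525). The interaction for ID1, the joint effect minus the sum of the single effects, was 1.19 on the log2 scale and did not pass (adjusted p = 0.248). BMP7, a BMP ligand, was at 359, 458 and 619 in Noggin+RA and 221, 252 and 309 in Tris+DMSO, and did not pass (log2 0.82, adjusted p = 0.0902). None of the 19 kept BMP ligands, receptors and antagonists passed, and their median was 0.14.

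TBX22 and EMX2, from the list of frontonasal and upper face factors, rose, and ALX1 came close to the threshold. TBX22, a T-box factor needed for the palate, had 295, 266 and 339 in Noggin+RA, against 35.6, 69.1 and 72.5 in Tris+DMSO. All treated pools were far above all control pools, and the rise was 4.31-fold (log2 2.11, SE 0.187, adjusted p = 0.00124). TBX22 also passed the adjusted p of 0.05 in each fit without 1 compared array, the highest being 0.00829. EMX2, a homeobox gene of the forebrain and head mesenchyme, was at 155, 139 and 248 in Noggin+RA and at 24.0, 14.9 and 42.4 in Tris+DMSO, and was at least 3.63-fold higher (adjusted p = 0.00527). ALX1, a paired-type factor of frontonasal and periocular mesenchyme, was at 1001, 659 and 1339 in Noggin+RA and 267, 397 and 382 in Tris+DMSO (log2 1.44, SE 0.309, adjusted p = 0.0574). Of 11 kept genes on the frontonasal and upper face list, 2 passed upward and none passed downward, with a median of 0.21. TBX22, as a gene of the palate, could also have been placed with the maxillary factors, whose list has no upward call. The counts of both lists depend on that choice.

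These 3 genes had different values under the single treatments. The comparisons of each treatment share the Tris+DMSO arrays, so they are given side by side and not as independent results. TBX22 differed by 1.61 on the log2 scale with Noggin alone (adjusted p = 0.00218) and by 0.24 with RA alone (adjusted p = 0.927). EMX2 differed by 1.79 with Noggin alone (adjusted p = 0.00444) and by 0.68 with RA alone (adjusted p = 0.672). ALX1 differed by -0.42 with Noggin alone (adjusted p = 0.427) and by 1.13 with RA alone (adjusted p = 0.383). Set directly against Tris+RA, Noggin+RA was higher for TBX22 (log2 1.86, limma adjusted p = 0.00295) and EMX2 (log2 1.52, limma adjusted p = 0.0480). Against Noggin+DMSO, Noggin+RA was higher for ALX1 (log2 1.86, limma adjusted p = 0.0313). TBX22 (log2 0.50, limma adjusted p = 0.399) and EMX2 (log2 0.41, limma adjusted p = 0.683) did not pass against Noggin+DMSO.

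Of the first arch and maxillary factors, LHX8, PRRX1, DLX1 and MECOM fell. LHX8, a LIM-domain transcription factor of first arch mesenchyme, was at 182, 129.8 and 81.6 in Noggin+RA, against 383, 895 and 615 in Tris+DMSO. The groups did not overlap although the control pools were widely spread, and LHX8 fell 4.33-fold (log2 -2.12, SE 0.359, adjusted p = 0.0238). PRRX1, a paired homeobox gene of the head mesenchyme, fell by all 3 of its probe sets that were kept. The brightest read 690.0, 783 and 516 in Noggin+RA and 1092, 1721 and 1213 in Tris+DMSO (1.99-fold lower, adjusted p = 0.0424). The other 2 were 2.87-fold (adjusted p = 0.0186) and 3.23-fold lower (adjusted p = 0.0178). By its brightest probe set PRRX1 averaged 663 ± 136 in Noggin+RA and 400.5 ± 50.8 in Noggin+DMSO (SD, n = 3 each), a difference that did not pass (adjusted p = 0.204).

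DLX1, a homeobox gene of the first arch, read 82.5, 60.4 and 46.4 in Noggin+RA and 103, 165 and 177 in Tris+DMSO and fell 2.07-fold (adjusted p = 0.0402). MECOM, a zinc finger transcription factor, had 76.7, 64.7 and 54.9 in Noggin+RA and 159, 179.8 and 179.8 in Tris+DMSO and fell 2.33-fold (adjusted p = 0.0186). With Noggin alone LHX8, DLX1 and MECOM differed from Tris+DMSO by -1.43, -1.04 and -1.41 on the log2 scale (limma adjusted p = 0.0434, 0.0170 and 0.00341). With RA alone they differed by -1.24, -0.94 and -0.31 (limma adjusted p = 0.419, 0.244 and 0.893). For none of these genes did Noggin+RA pass against either single treatment. BARX1, a homeobox gene of the maxillary and mandibular mesenchyme, was at 157, 197 and 62.5 in Noggin+RA and 203, 654 and 469 in Tris+DMSO, and did not pass (log2 -1.54, SE 0.419, adjusted p = 0.124). Its first control pool was only just above the second treated pool.

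Of the other maxillary factors, TCF21, a helix-loop-helix gene of branchial muscle and mesenchyme, was at 80.9, 52.6 and 61.4 in Noggin+RA and 129.8, 116 and 161 in Tris+DMSO (log2 -0.91, adjusted p = 0.0596). TWIST2 (log2 -0.76, adjusted p = 0.159) and SOHO1 (log2 -0.63, adjusted p = 0.171) were below 0 and did not pass. PITX1, a homeobox gene of the lower jaw and hindlimb, lay above 0, at 349, 356 and 322 in Noggin+RA and 201, 211 and 218 in Tris+DMSO, and did not pass either (log2 0.66, adjusted p = 0.123). Of 16 kept genes of this list 4 passed downward, none passed upward and 4 were above 0, with a median of -0.69 against 0.03 over all genes. Under other settings of the processing the median ran from -0.80 to -0.25. This list too was written with earlier results of these data known, so its median describes the list and tests nothing. The cranial mesenchyme markers, which share PRRX1, TWIST1 and MSX1 with the lists above, had a summed intensity of 6772 to 8032 in Noggin+RA and 7219.7 to 9562 in Tris+DMSO, and 1 of 8 (PRRX1) passed.

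DLX5 and ALDH1A3 were lower with both factors than with Noggin alone. DLX5, another homeobox gene of the first arch, was at 427, 626 and 298 in Noggin+RA and 635, 755 and 882 in Tris+DMSO (log2 -0.78, adjusted p = 0.124), while it averaged 1921 ± 133 in Noggin+DMSO (SD, n = 3). Noggin+RA against Noggin+DMSO gave -2.11 on the log2 scale (adjusted p = 0.00331). ALDH1A3 averaged 239.8 ± 59.1 in Noggin+RA and 1353 ± 342 in Noggin+DMSO (log2 -2.42, adjusted p = 0.0313). The interaction passed for neither (adjusted p = 0.473 for DLX5 and 0.479 for ALDH1A3).

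MAB21L1 and MAB21L2, related genes needed in the developing eye and also expressed in facial mesenchyme, both fell. MAB21L2 was at 92.1, 76.6 and 64.5 in Noggin+RA and 184, 258 and 274 in Tris+DMSO, 2.70-fold lower (adjusted p = 0.0186). MAB21L1 was at 3.22, 47.0 and 33.4 in Noggin+RA and 133, 211 and 116 in Tris+DMSO, at least 2.83-fold lower (adjusted p = 0.0499). Its first treated pool was near 0, and the adjusted p reached 0.146 in the fits that left out 1 compared array. PAX6 (80.8 ± 49.1 in Noggin+RA, 132 ± 21.5 in Tris+DMSO) and SIX3 (113 ± 23.7 in Noggin+RA, 71.5 ± 39.7 in Tris+DMSO), markers of eye and forebrain, did not pass (adjusted p = 0.292 and 0.382; SD, n = 3 each).

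The protease PLAU and the inhibitors TFPI2 and TIMP4 rose. PLAU, the secreted protease urokinase, gave 654, 797 and 1308 in Noggin+RA, against 91.3, 123 and 143 in Tris+DMSO. No other gene with a symbol that was called by its brightest probe set rose by more, at 6.72-fold (log2 2.75, SE 0.251, adjusted p = 0.00124). TFPI2, an inhibitor of serine proteases, was at 1398, 1025 and 2171 in Noggin+RA and 328, 405 and 313 in Tris+DMSO and rose 4.07-fold (adjusted p = 0.0186). TIMP4, an inhibitor of metalloproteases, read 87.1, 60.1 and 93.6 in Noggin+RA and 44.9, 28.4 and 37.0 in Tris+DMSO and was at least 1.69-fold higher (adjusted p = 0.0499).

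PLAU was higher with both factors than with either one. It averaged 919.6 ± 344 in Noggin+RA, against 289 ± 26.9 in Noggin+DMSO (adjusted p = 0.0260 for the difference) and 248 ± 67.8 in Tris+RA (adjusted p = 0.0209; SD, n = 3 each). Its interaction was 0.61 on the log2 scale, SE 0.355, and did not pass (adjusted p = 0.909), so the joint effect was not shown to differ from the sum of the single ones. TFPI2 averaged 1531 ± 584 in Noggin+RA, 522 ± 70.1 in Noggin+DMSO and 1206 ± 505 in Tris+RA, and neither difference passed (adjusted p = 0.0871 and 0.644).

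HTRA3, a secreted serine protease, gave unequal readings by probe set. The probe set with its largest difference was at 154, 114 and 137 in Noggin+RA and 39.3, 28.9 and 43.7 in Tris+DMSO, a 2.84-fold rise (log2 1.505, SE 0.151, adjusted p = 0.00246). This probe set was also higher than in Noggin+DMSO (log2 1.45, adjusted p = 0.00356) and Tris+RA (log2 0.88, adjusted p = 0.0480). Another rose 1.78-fold (adjusted p = 0.0178), and the one left, the brightest by the mean of all arrays, did not pass (81.0 ± 19.6 in Noggin+RA, 60.6 ± 0.432 in Tris+DMSO, SD, n = 3 each, adjusted p = 0.413). MMP23A, a metalloprotease that was not on the list, was at 106, 112 and 203 in Noggin+RA and 57.1, 52.0 and 50.9 in Tris+DMSO and rose 2.17-fold (adjusted p = 0.0219). Among the rest of the list, MMP2, a gelatinase, averaged 1564 ± 114 in Noggin+RA and 1074 ± 172 in Tris+DMSO (adjusted p = 0.0968), and TIMP3, another metalloprotease inhibitor, 252 ± 25.0 in Noggin+RA and 138 ± 28.6 in Tris+DMSO (adjusted p = 0.0509; SD, n = 3 each). Counted by the brightest probe set, 3 of 16 kept genes rose, none fell and 14 were above 0, with a median of 0.42. Over all genes 0.64% rose, 0.344% fell and 54.9% were above 0.

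Rises in the matrix included collagens and a small proteoglycan. COL12A1, a collagen that coats fibrils, was at 1075, 1159 and 1373 in Noggin+RA and 597, 555 and 518 in Tris+DMSO, and rose 2.12-fold (log2 1.08, SE 0.122, adjusted p = 0.00527). Its other 2 called probe sets rose 2.06-fold and 2.04-fold (adjusted p = 0.0291 and 0.0116). COL8A1, a short-chain collagen, was at 239, 374 and 258 in Noggin+RA and 107, 83.9 and 103 in Tris+DMSO, a 2.65-fold rise (adjusted p = 0.0163). OGN, a small leucine-rich proteoglycan, had 68.2, 77.3 and 110.0 in Noggin+RA and 26.8, 28.6 and 26.3 in Tris+DMSO and was at least 1.93-fold higher (adjusted p = 0.00527).

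SPON2, a secreted matrix protein of the spondin family, read 70.4, 79.4 and 68.8 in Noggin+RA and 13.9, 16.2 and 22.0 in Tris+DMSO, at least 1.72-fold higher (adjusted p = 0.00527). Every control value of SPON2 was below background. FBLN5, an elastic fibre protein, rose 1.98-fold by one probe set and 1.77-fold by another (adjusted p = 0.0290 and 0.0217), OLFML2B, an olfactomedin domain protein, 2.01-fold (adjusted p = 0.0290) and SDC2, a cell surface heparan sulfate proteoglycan, 1.503-fold (adjusted p = 0.0482). POSTN, a matrix protein of periosteum and mesenchyme, was at 2014, 2384 and 2884 in Noggin+RA and 1322, 1491 and 1022 in Tris+DMSO and did not pass (log2 0.92, adjusted p = 0.166). HAS2, the hyaluronan synthase of mesenchyme, was at 208, 274 and 98.4 in Noggin+RA and 316, 401 and 429.6 in Tris+DMSO, in the other direction, and did not pass (log2 -1.02, adjusted p = 0.137). Of the 30 kept genes of the matrix list COL12A1, OGN and SPON2 rose, none fell and 25 were above 0, with a median of 0.29.

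Secreted modulators of WNT signalling changed in both directions. RSPO3, an R-spondin that strengthens WNT signalling, was at 953, 864 and 1422 in Noggin+RA and 284, 266 and 417 in Tris+DMSO, a 3.22-fold rise (log2 1.69, SE 0.225, adjusted p = 0.0100), and its second probe set rose 2.80-fold (adjusted p = 0.0191). RSPO1, of the same family, had 132, 115 and 147 in Noggin+RA and 65.0, 39.9 and 47.2 in Tris+DMSO and rose 2.23-fold (adjusted p = 0.0263). SFRP4, a secreted frizzled-related protein, read 119, 102 and 248 in Noggin+RA and 34.9, 34.8 and 53.5 in Tris+DMSO and rose 2.86-fold by its brightest probe set (adjusted p = 0.0219), while its other one was at 64.5 ± 17.3 in Noggin+RA and 50.1 ± 13.9 in Tris+DMSO (SD, n = 3 each) and did not pass (adjusted p = 0.534). The third treated pool was the highest for all 3 genes.

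WISP1, a matricellular target of WNT signalling, was at 167, 167 and 162 in Noggin+RA and 63.9, 98.0 and 81.2 in Tris+DMSO and rose 1.89-fold (adjusted p = 0.0235). FRZB, another secreted frizzled-related protein, read 1023, 943 and 884 in Noggin+RA and 1510.2, 1824 and 1532 in Tris+DMSO and fell 1.69-fold (log2 -0.76, SE 0.113, adjusted p = 0.0164). WIF1, a secreted WNT inhibitor, was at 57.0, 67.1 and 21.2 in Noggin+RA and 89.2, 124 and 162 in Tris+DMSO and did not pass (log2 -1.18, adjusted p = 0.0942). Of 30 kept genes on the WNT list 3 rose and 1 fell, as RSPO3, RSPO1, SFRP4 and WISP1 were not all on it. The median of the list was 0.07 as deposited and -0.03 after median centring, so the list as a whole had no direction that held under both scalings.

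RSPO3 had its highest mean with Noggin alone. It averaged 1079 ± 299.8 in Noggin+RA, 1297 ± 34.4 in Noggin+DMSO, 235 ± 62.0 in Tris+RA pools and 322 ± 82.4 in Tris+DMSO (SD, n = 3 each). Noggin+RA exceeded Tris+RA (log2 2.12, adjusted p = 0.00295), while its difference from Noggin+DMSO was -0.29 on the log2 scale (adjusted p = 0.750). COL12A1 was placed in the same way, at 1203 ± 154 in Noggin+RA, 1437 ± 80.9 in Noggin+DMSO, 515 ± 56.1 in Tris+RA pools and 557 ± 39.5 in Tris+DMSO. PENK, the precursor of the enkephalin peptides, was placed the other way round. It averaged 2462 ± 737 in Noggin+RA, 370.3 ± 22.6 in Noggin+DMSO, 2842 ± 962 in Tris+RA pools and 581 ± 113 in Tris+DMSO, and Noggin+RA exceeded Noggin+DMSO (log2 2.63, adjusted p = 0.00378).

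**Figure D3:**
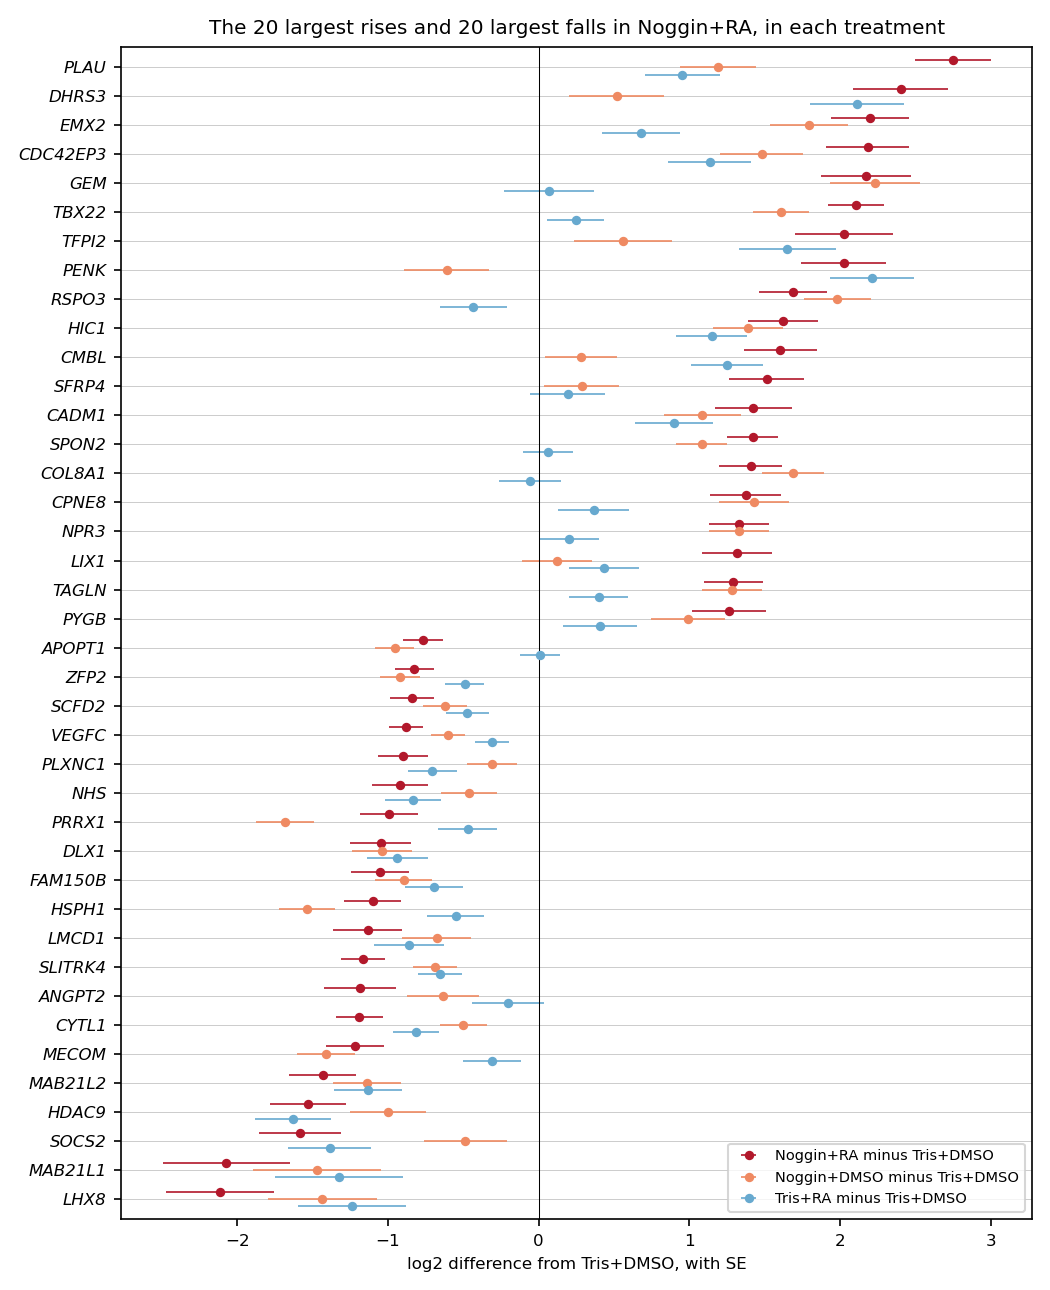
The log2 difference from Tris+DMSO, with its SE, of the 20 largest rises and 20 largest falls in Noggin+RA, for Noggin+RA, Noggin+DMSO and Tris+RA. Only genes called by their brightest probe set were ranked, without accession-like and open reading frame symbols. GEM and RSPO3 lie near the Noggin+DMSO points and PENK and DHRS3 near the Tris+RA points, while PLAU lies beyond both. The 3 differences of a gene share the same Tris+DMSO arrays.

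Over all probe sets, the interaction passed in 0 of 21354 by limma (smallest adjusted p = 0.125, and 1274 at an unadjusted p below 0.05). Tris+RA against Tris+DMSO also gave 0 calls (smallest adjusted p = 0.0557, with 1368 at an unadjusted p below 0.05). Noggin+DMSO against Tris+DMSO gave 1058 calls (smallest adjusted p = 0.000513, with 5280 at an unadjusted p below 0.05), and it shares the Tris+DMSO arrays with the 173 calls of Noggin+RA. Noggin+RA differed from Noggin+DMSO in 95 probe sets and from Tris+RA in 46. Noggin+DMSO against Tris+DMSO and Noggin+RA against Tris+RA differ in Noggin, and so also in the GAPDH ratio described above.

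The muscle genes TNNC1 and MYL4 rose. TNNC1, the calcium-binding troponin of slow and heart muscle, was at 362, 368 and 447 in Noggin+RA and 199, 184 and 143 in Tris+DMSO, 2.14-fold higher (log2 1.10, SE 0.168, adjusted p = 0.0174). MYL4, an embryonic myosin light chain, was at 567, 557 and 859 in Noggin+RA and 372, 241 and 220.1 in Tris+DMSO, 2.32-fold higher (adjusted p = 0.0287). FBXO32, a ubiquitin ligase subunit of muscle, was at 305, 119 and 561 in Noggin+RA and 54.2, 42.1 and 53.8 in Tris+DMSO and did not pass (log2 2.15, SE 0.500, adjusted p = 0.0784). Its treated pools were widely spread, and none overlapped a control pool, as in 19.8% of all tested probe sets.

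TAGLN, an actin-binding protein of smooth muscle and fibroblasts, had 328, 397 and 537 in Noggin+RA and 150.1, 169 and 158 in Tris+DMSO and rose 2.45-fold (adjusted p = 0.0174). MYLK, the kinase of the myosin light chain, rose 1.76-fold (adjusted p = 0.0186), FHL2, a LIM domain protein of muscle and mesenchyme, 2.32-fold (adjusted p = 0.0322), and CRIP1, a small LIM domain protein, 1.95-fold (adjusted p = 0.0327). NES, the intermediate filament nestin, rose 1.96-fold (adjusted p = 0.0287) and KRT75, a keratin, 1.99-fold (adjusted p = 0.0415). Of the 12 kept skeletal and heart muscle markers 2 passed upward, none passed downward and 9 were above 0, with a median of 0.47. At an unadjusted p below 0.05 by limma, reached by 3148 of all 21354 probe sets, 8 markers were higher and 2 lower. The markers ranged down to -0.54 on the log2 scale. Their summed intensity was 1975 to 2915 in Noggin+RA and 1025 to 1359 in Tris+DMSO. No kept muscle marker was below background on all 6 arrays, and 8 of 12 were above it on all 6. The part of muscle content in these rises was not tested.

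CDC42EP3 and GEM rose. CDC42EP3, an effector of CDC42, was at 926, 808 and 1583 in Noggin+RA and 174, 253 and 244 in Tris+DMSO, 4.54-fold higher (log2 2.18, SE 0.274, adjusted p = 0.00763). GEM, a GTP-binding protein that inhibits calcium channels and alters cell shape, was at 74.7, 107 and 188 in Noggin+RA and 14.6, 4.75 and 23.4 in Tris+DMSO, at least 2.55-fold higher (adjusted p = 0.0114). All GEM control values were below background. GEM averaged 123 ± 58.6 in Noggin+RA, 123 ± 27.8 in Noggin+DMSO and 15.0 ± 6.16 in Tris+RA, and Noggin+RA exceeded Tris+RA (log2 2.10, adjusted p = 0.0212; SD, n = 3 each).

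Vessel factors, guidance molecules and adhesion genes changed in single members. VEGFC, a growth factor of lymphatic and blood vessels, read 329.9, 346 and 282 in Noggin+RA and 651, 562 and 589 in Tris+DMSO and fell 1.84-fold (log2 -0.88, SE 0.114, adjusted p = 0.00940). ANGPT2, a ligand of the endothelial receptor TEK, was at 56.4, 63.7 and 40.9 in Noggin+RA and 103, 122 and 219 in Tris+DMSO and fell 2.27-fold (adjusted p = 0.0482). ADM, which encodes the vasodilator peptide adrenomedullin, was at 987, 1070.5 and 1244 in Noggin+RA and 446, 658 and 425 in Tris+DMSO and rose 2.16-fold (adjusted p = 0.0268). ANGPT2 was the single endothelial marker of 16 kept that passed, and the summed endothelial intensity was 3935 to 4163 in Noggin+RA and 4267 to 4604 in Tris+DMSO.

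SEMA7A, a membrane-anchored semaphorin, rose, while its receptor gene PLXNC1 fell by 1 of its 3 kept probe sets. SEMA7A was at 136, 116 and 149.8 in Noggin+RA and 74.5, 70.6 and 71.8 in Tris+DMSO (1.69-fold higher, adjusted p = 0.0150). By its brightest probe set PLXNC1 was at 743, 841 and 596 in Noggin+RA and 1533, 1205 and 1349 in Tris+DMSO (1.86-fold lower, adjusted p = 0.0319). Its other kept probe sets did not pass, and 1 of them lay above 0. SLITRK4, a membrane protein of neurons and mesenchyme, had 149, 157 and 123 in Noggin+RA and 279.7, 379 and 366 in Tris+DMSO and fell 2.24-fold (adjusted p = 0.00763). CADM1, an immunoglobulin-type adhesion molecule, rose 2.69-fold by one probe set (2544, 1758 and 2412 in Noggin+RA, 629, 635 and 1339 in Tris+DMSO, adjusted p = 0.0299) and 1.94-fold by another (adjusted p = 0.0305). SEMA7A, PLXNC1 and CADM1 were not on the axon guidance and cell contact list. Of 34 kept genes on that list, SLITRK4 alone passed, and the median was -0.02.

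SEMA3D, a secreted semaphorin, was lower with both factors than with either one. It averaged 162 ± 30.1 in Noggin+RA, 357 ± 11.6 in Noggin+DMSO, 310.2 ± 28.1 in Tris+RA pools and 253 ± 11.2 in Tris+DMSO (SD, n = 3 each). Against Tris+DMSO it missed the threshold (log2 -0.61, adjusted p = 0.0563), while it passed against Noggin+DMSO (log2 -1.08, adjusted p = 0.00487) and against Tris+RA (log2 -0.88, adjusted p = 0.0256). Its interaction of -1.35 on the log2 scale (SE 0.183) had an adjusted p of 0.125, equal to the smallest of all probe sets.

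CA9 and CA12, carbonic anhydrases that face the outside of the cell, were both higher. CA9 was at 2141, 1965 and 2386 in Noggin+RA and 1341, 1035 and 1247 in Tris+DMSO (1.79-fold, adjusted p = 0.0468), and CA12 was at 67.8, 60.1 and 99.7 in Noggin+RA and 20.3, 33.5 and 33.7 in Tris+DMSO (at least 1.75-fold, adjusted p = 0.0231). The CA12 probe set passed the filter only with the Noggin+RA arrays, the group where it was high. NPR3, which clears natriuretic peptides, rose 2.51-fold (1039.7, 1384 and 1914 in Noggin+RA, 661, 543 and 458 in Tris+DMSO, adjusted p = 0.0164). ADRA2A, an adrenergic receptor, rose 1.75-fold (adjusted p = 0.0299), and SYT6, a synaptotagmin, was at least 1.65-fold higher (adjusted p = 0.0237). APOA1, the main protein of high-density lipoprotein, rose 1.71-fold by its brighter and 3.79-fold by its dimmer called probe set (adjusted p = 0.0164 and 0.00434).

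Several other genes rose, with CMBL, CPNE8, PYGB and OTOP1 up by more than 2-fold. CMBL, a cytosolic hydrolase, rose 3.04-fold (adjusted p = 0.0164), CPNE8, a calcium-dependent membrane-binding protein, 2.59-fold (adjusted p = 0.0240), PYGB, a glycogen phosphorylase, 2.40-fold (adjusted p = 0.0424), and OTOP1, a proton channel, 2.35-fold (adjusted p = 0.0240). HIC1, a zinc finger repressor, was at least 1.299-fold higher (45.03, 40.3 and 71.2 in Noggin+RA, 16.1, 2.05 and 1.72 in Tris+DMSO, adjusted p = 0.0150). LIX1 was at least 1.94-fold higher (adjusted p = 0.0290). HIC1 and LIX1 passed the filter only with the Noggin+RA arrays, so their place among the tested probe sets depended on the group where they were high. HIC1 was above background on 2 of 3 Noggin+RA arrays.

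Outside the patterning lists, CYTL1, SOCS2 and HDAC9 fell. CYTL1, a small secreted protein of cartilage and mesenchyme, was at 853, 1083 and 725 in Noggin+RA and 2255, 1885 and 1931 in Tris+DMSO and fell 2.28-fold (log2 -1.19, SE 0.155, adjusted p = 0.00940). CYTL1 was also the 1 of 9 kept cartilage and bone genes that passed; COL9A1, a cartilage collagen, averaged 183 ± 40.2 in Noggin+RA and 307 ± 77.2 in Tris+DMSO (SD, n = 3 each, adjusted p = 0.185). SOCS2, a suppressor of cytokine and growth hormone signalling, was at 76.8, 113 and 55.4 in Noggin+RA and 202, 304 and 313 in Tris+DMSO, 2.996-fold lower (adjusted p = 0.0263). HDAC9, a histone deacetylase, was at 151, 127 and 77.1 in Noggin+RA and 284, 369 and 447 in Tris+DMSO, 2.89-fold lower (adjusted p = 0.0219).

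HSPH1, a large heat shock protein, fell 2.14-fold (169, 168 and 122 in Noggin+RA, 394, 277 and 370.3 in Tris+DMSO, adjusted p = 0.0250) and was the 1 of 20 kept chaperone genes that passed. LMCD1, a LIM domain cofactor, fell 2.19-fold (adjusted p = 0.0494), and FAM150B, a secreted ligand of the receptor ALK in mammals, was at least 1.62-fold lower (adjusted p = 0.0301). MYO10, a myosin of filopodia, fell 1.70-fold and 1.72-fold by its 2 called probe sets (adjusted p = 0.0186 and 0.0179). UBA2, DICER1, NOM1, RIF1 and ZFP36L2 also fell, RIF1 by 1 of its 2 kept probe sets, the other lying above 0. UBA2, a subunit of the enzyme that activates SUMO, fell 1.63-fold (adjusted p = 0.0186), DICER1, which processes microRNA precursors, 1.63-fold (adjusted p = 0.0424), NOM1, a nucleolar protein, 1.62-fold (adjusted p = 0.0410), RIF1, a regulator of replication timing, 1.67-fold (adjusted p = 0.0419) and ZFP36L2, which promotes mRNA decay, 1.51-fold (adjusted p = 0.0415).

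The remaining pathway lists had no member that passed. Among 10 kept hedgehog and forkhead genes, FOXD1, a forkhead transcription factor, was at 734, 967 and 1031 in Noggin+RA and 626, 285 and 360.1 in Tris+DMSO (log2 1.14, adjusted p = 0.0628), and FOXC2 at 188 ± 16.9 in Noggin+RA and 109 ± 25.2 in Tris+DMSO (adjusted p = 0.133; SD, n = 3 each). The HOX list kept 6 genes, with HOXB1 at 142, 63.8 and 146 in Noggin+RA and 27.8, 45.8 and 49.97 in Tris+DMSO (adjusted p = 0.218) and HOXA3 at 43.9, 21.6 and 58.6 in Noggin+RA and 3.05, 6.995 and 14.9 in Tris+DMSO (adjusted p = 0.174). All HOXA3 control values and its second treated value were below background. Of the 6 HOX genes 3 were above 0, with a median of 0.10 and a lowest log2 difference of -0.28. At an unadjusted p below 0.05 by limma, 2 were higher and 1 lower. None of 17 kept FGF pathway genes, 24 cell cycle genes and 17 apoptosis genes passed. The cell cycle list had 7 genes above 0 and a median of -0.12, with MCM6, a replicative helicase subunit, at -0.46 (adjusted p = 0.127).

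**Figure D4:**
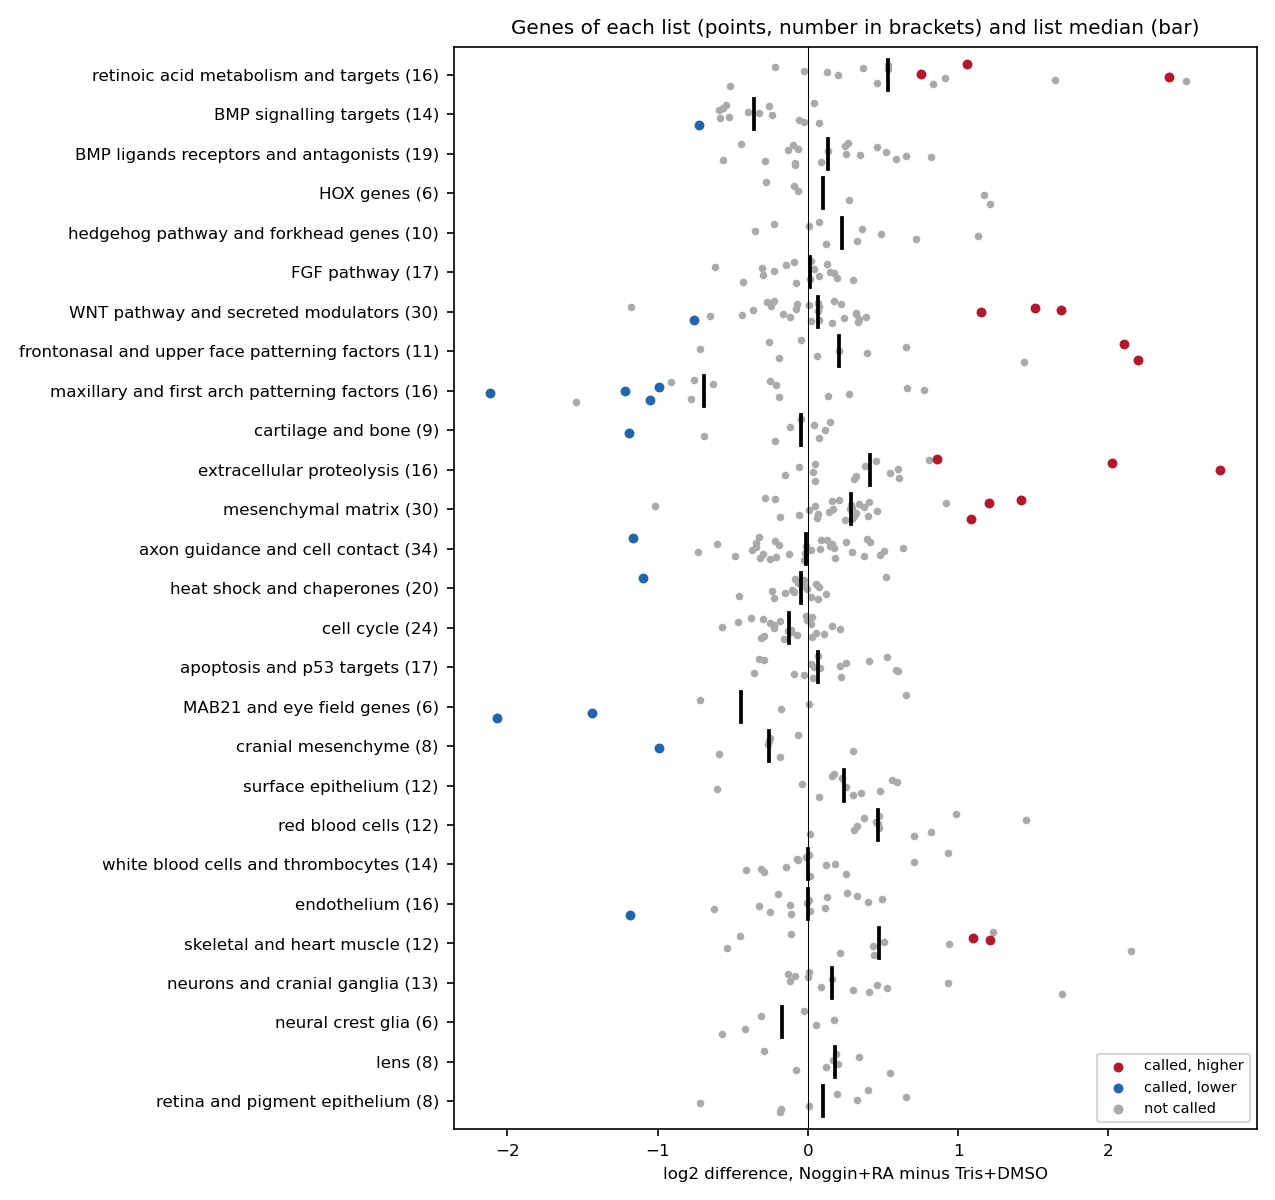
Log2 difference (Noggin+RA minus Tris+DMSO) of each kept gene of the 27 lists, 1 probe set per gene, with genes that passed in red (higher) or blue (lower) and the list median as a bar. The RA, muscle, red blood cell and proteolysis medians lie furthest right of 0, at 0.53, 0.47, 0.47 and 0.42. The maxillary median lies left of it, at -0.69. The medians of the WNT, FGF, apoptosis, endothelium and retina lists lie above 0 as deposited and below 0 after median centring.

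No marker of red blood cells, surface epithelium or neurons passed. All 12 kept red blood cell genes were above 0, none passed and the median was 0.47, with a summed intensity of 25588 to 29360.4 in Noggin+RA and 14389.8 to 26652 in Tris+DMSO. SLC4A1, the anion exchanger of the red cell membrane, was at 730.2, 243 and 241 in Noggin+RA and 149.8, 189 and 55.2 in Tris+DMSO (adjusted p = 0.226). Surface epithelium markers summed to 6447 to 7864 in Noggin+RA and 5582 to 6016 in Tris+DMSO, with 10 of 12 above 0, a median of 0.24 and none passing. Neuron and ganglion markers summed to 4469.5 to 6579 in Noggin+RA and 2229 to 6980.5 in Tris+DMSO with none of 13 passing; among them CHGA, a protein of secretory granules, was at 365, 512 and 700.4 in Noggin+RA and 246, 148 and 84.1 in Tris+DMSO (log2 1.69, adjusted p = 0.0761). No marker of the glia (6 kept), lens (8), retina (8) or white blood cell (14) lists passed. The part of tissue content in the gene results was not tested.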

How the data were processed

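Chicken maxillary RNA was biotin-labelled in a two-cycle protocol from 500 ng of total RNA, per the labels' protocols. The authors deposited 1 intensity per probe set and array, on a linear scale with a common trimmed mean (2% off each end). The summarization software is not given in the sources used here, nor is any background correction. Each array is 1 pool of embryos, and the labels call pools separate biological replicates. Of 38535 probe sets, 37693 were chicken, and 21354 above their array's median (50th percentile) on at least 3 of 12 arrays were kept. Of the chicken probe sets 27182 had 1 symbol in the platform annotation, 161 had several and 10350 had none.

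Group means of log2(intensity + 16) were fitted over all 12 arrays with limma 3.58.1 in R 4.3.3, and calls needed a Benjamini-Hochberg adjusted p below 0.05. The fit was tested on simulated data. Genes were named if called by their brightest probe set or if on a list; further probe sets of such genes are given too. Members and lists were chosen with earlier results of these data known. Alternatives changed the pseudocount, filter, scaling, samples, block, covariate and prior. Promoter and protein sequences were not used here. The number of arrays limits the precision.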

Additional observations from a re-analysis of the deposited data

How the results depend on the processing

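The count of 173 calls was 305 with a pseudocount of 64, 127 with a pseudocount of 1, 63 without the filter and 215 with a filter on 6 arrays. It was 172 after quantile normalization, 183 after median centring and 175 with array weights, and 311 with an intensity trend and robust prior. At an adjusted p below 0.1 it was 422. Fitting only the 6 compared arrays gave 4 calls, and adding the GAPDH ratio as a covariate gave 2. The brightest probe set of HTRA3, which did not pass, turned to -0.23 on the log2 scale with that covariate, against 0.32 without it; the cause was not tested. Leaving out 1 of the 12 arrays gave 33 to 167 calls. With the replicate number as a block 83 probe sets passed, 76 of them among the 173. The numbers did not pair the pools: the deviations of Noggin+RA and Tris+DMSO pools with the same number correlated at -0.0658, -0.0700 and 0.0273. Dim genes are limited by background, and 27 of the 173 calls had a group with no more than 1 array above it.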
